A study of Mus musculus with 8 samples.

Results

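The genes described here are 38 genes of glycolysis and of the response to low oxygen, taken by symbol from the 20057 genes of the expression table of tumor endothelial cells, and all 38 were found in it. Of these, 22 belong to glycolysis (2 glucose transporters, 11 genes of its upper part, 6 of its lower part, and 3 of pyruvate and lactate handling) and 16 to the hypoxia response (4 HIF subunits and oxygen sensors, and 12 HIF targets). The cells were sorted as CD45- CD31+ live cells, about 100000 per tumor, from subcutaneous B16.F10 melanomas in C57BL/6 male mice that were implanted with 250000 cells at 8 weeks of age. Antibody was injected next to the tumor 2 times, 30 µg each, at day 13 and day 16, in all mice. The labels place the sacrifice of all 8 a day after the second injection, whereas the methods of the study name more than 1 harvest day for sorted tumors. In the anti-CD40 group (mice 5N, 6L, 6R and 10N) the antibody was the agonistic CD40 mAb FGK4.5, and in the isotype group (mice 5L, 7N, 8N and 9L) it was the rat IgG2a 2A3. Each mouse gave 1 RNA-seq library, so the 4 libraries of a group are separate animals. Values are read counts per gene divided by the size factor of the library and are called normalized reads.

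Glycolysis splits glucose into pyruvate, and in endothelial cells it is known as a main source of ATP and as a pathway that sprouting vessels use more strongly. The hypoxia-inducible factors HIF-1α (Hif1a) and HIF-2α (Epas1) are kept low by the oxygen-dependent prolyl hydroxylases (Egln1, Egln3). When oxygen falls they pair with ARNT, bind short elements in promoters and enhancers, and switch on glucose transporters, glycolytic enzymes and targets such as Adm, Bnip3 and Ndrg1. Many glycolytic genes are therefore HIF targets too, but the roles used here do not overlap, and such genes are listed under glycolysis only.

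The element bound by the HIF dimer has the core ACGTG or GCGTG. It was searched on both strands in RefSeq promoter windows of the mouse build GRCm38.p6, each 300 bases long, from 250 bases before a transcription start to 50 after it. Windows were found for 34 of the 38 genes, 51 in all, some genes having several starts. Slc2a3, Epas1, Bnip3l and Ndrg1 had none. A core occurred in 40 of the 51 windows (78.4%), against 43.8% of all 32851 windows. The core ACGTG alone occurred in 54.9% against 19.6%, and GCGTG alone in 52.9% against 32.4%. Where the core reads CACGTG, which is also the E-box that other factors bind, it matches on both strands; CACGTG occurred in 9.80% of the members' windows and in 7.15% of all windows. Windows of a gene can overlap and hold the same match, as for Eno1 and Aldoa. Counted by gene, ACGTG or GCGTG occurred in 31 of 34 members, against 12628 of all 27025 genes. The GC content of the windows was not compared. The members include genes listed as HIF targets, so these shares describe the list, and a match is a description of the letters and not of binding.

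For 4 of these windows the sequence is shown, as examples of how the cores are placed. They were chosen after their matches were known, and where a gene has 2 windows the one with more matches is shown. The genes are Ldha, the lactate dehydrogenase subunit (chr7:46845554-46845853, plus strand, one of 2 windows); Pfkfb3, the gene with the lowest limma p of the 38 (chr2:11502041-11502340, minus strand, the inner one of 2 windows); and the HIF targets Adm (chr7:110627407-110627706, plus strand) and Bnip3 (chr7:138909457-138909756, minus strand). They are written 5′ to 3′ on the strand of the gene, with the cores, and the E-boxes that contain them, in capitals.
Ldha: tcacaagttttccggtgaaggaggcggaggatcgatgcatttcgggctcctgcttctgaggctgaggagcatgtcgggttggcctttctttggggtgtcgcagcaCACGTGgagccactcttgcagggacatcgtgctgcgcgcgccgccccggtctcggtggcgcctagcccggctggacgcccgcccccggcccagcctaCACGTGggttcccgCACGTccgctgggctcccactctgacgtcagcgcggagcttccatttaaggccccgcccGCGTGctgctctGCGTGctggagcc
Pfkfb3: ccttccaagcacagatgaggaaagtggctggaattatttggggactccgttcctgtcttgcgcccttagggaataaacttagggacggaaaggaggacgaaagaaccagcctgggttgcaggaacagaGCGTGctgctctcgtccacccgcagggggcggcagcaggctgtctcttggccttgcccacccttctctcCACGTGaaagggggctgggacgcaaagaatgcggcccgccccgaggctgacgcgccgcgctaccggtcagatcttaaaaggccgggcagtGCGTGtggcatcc
Adm: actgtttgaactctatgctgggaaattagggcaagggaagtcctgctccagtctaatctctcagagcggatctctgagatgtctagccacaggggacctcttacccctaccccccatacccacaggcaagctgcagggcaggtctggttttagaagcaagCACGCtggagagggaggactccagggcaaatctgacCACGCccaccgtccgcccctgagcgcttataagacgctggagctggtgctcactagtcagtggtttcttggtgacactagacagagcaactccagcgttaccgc
Bnip3: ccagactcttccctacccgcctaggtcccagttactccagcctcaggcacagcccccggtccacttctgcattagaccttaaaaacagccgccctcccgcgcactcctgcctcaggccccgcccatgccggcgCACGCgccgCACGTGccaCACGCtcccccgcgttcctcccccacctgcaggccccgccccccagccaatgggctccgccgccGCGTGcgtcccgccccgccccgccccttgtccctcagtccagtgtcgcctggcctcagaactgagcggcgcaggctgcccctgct
Counted on each strand, there were 7 matches in the Ldha window, 4 in that of Pfkfb3, 5 in that of Bnip3 and 2, both of GCGTG, in that of Adm. The windows not shown had 2 matches for Ldha and 1 for Pfkfb3.

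The libraries differed in depth and in content, and this bears on every value below. They held between 2971689 and 64938728 reads on genes, and the isotype libraries 5L and 7N were the 2 with the fewest. The isotype library 8N was next, at 5790652, while 9L held 35583141. Every anti-CD40 library held at least 12512772, so depth went partly with treatment. The 10 endothelial markers were high in all 8 libraries (Pecam1 between 7671 and 12526 normalized reads), and the summed level of the list was 44309.6 to 63895 in the anti-CD40 and 39169 to 54061 in the isotype libraries. RNA of other cells was present too. The 7 melanoma markers summed to 35745 to 60849.7 in the anti-CD40 and 38674 to 93734 in the isotype libraries, with the maximum in 5L. The 5 fibroblast markers summed to 65459.7 to 148954 and 49533 to 120575, and the 5 mural cell markers to 13623 to 22178 and 9912 to 32731. None of these 3 lists had a gene past the threshold given below. The 8 leukocyte markers summed to 226 to 422 and 152 to 352. Ptprc (CD45) was at 1.51 to 21.1 normalized reads in the anti-CD40 and 0 to 4.98 in the isotype libraries. The T-cell genes Cd3e and Cd8a had 0 to 8 reads in the anti-CD40 libraries and 0 in every isotype library. Ptprc, Cd3e and Cd8a were too low to be tested in limma. All 5 red blood cell markers were past the threshold, lower after anti-CD40, with a lowest adjusted p in limma of 0.459 and sums of 276 to 1267 against 852 to 8759.8. In such bulk RNA, fewer cells of a type and less RNA per cell cannot be told apart.

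The first question was whether the agonistic CD40 mAb changed the level of these genes. No difference between the groups passed the test for any of the 38 genes. A gene was called when the ratio of the group means was at least 1.5, or at most 1/1.5, with an unadjusted p of at most 0.05 in limma. This ratio is taken before the log and can differ from the log2 fold change below, also in sign. For Ndrg1 the ratio was 0.942 and the log2 fold change 0.02. The p given for a gene on its own is from an exact permutation test, two-sided, of the difference in mean normalized reads over the 70 ways to split the 8 libraries. Of the 38 genes, 0 were called higher and 0 lower, against 1.28% and 0.239% of the 12969 genes tested. In limma, 0 of the 38 had an unadjusted p of 0.05 or less (2.01% of all genes), as did 0 in edgeR and 0 in DESeq2. The adjusted p was under 0.05 for 0 of the 38 (0.0154% of all genes, 2 genes), and the lowest among them in limma was 0.9997. For 0 of the 38 did all 4 libraries of a group lie on the same side of all 4 of the other, as they did for 1.57% of the genes tested. With shares this low over all genes, a count of 0 among 38 does not set the list apart from other genes.

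The log2 fold changes of the 38 genes, taken as anti-CD40 minus isotype on the scale of log2(value + 1), lay between -0.16 (Tpi1) and 0.56 (Pfkfb4), with SEs between 0.12 and 0.42. Their median was 0.0048, beside 0.0046 over all genes tested, with 19 above 0 and 19 below. The median was -0.018 for the 22 glycolysis genes, 9 of which were above 0, and 0.025 for the 16 hypoxia genes, 10 of which were above 0. The data bounded the change for most members. For 25 of the 38, the 95% interval of the fold change lay wholly between 1/1.5 and 1.5, as for 54.0% of the genes tested. These 25 include 16 of the 22 glycolysis and 9 of the 16 hypoxia genes. The other 13 intervals reached past a 1.5-fold difference on at least 1 side, so for these a change of that size in that direction was not excluded.

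**Figure D1:**
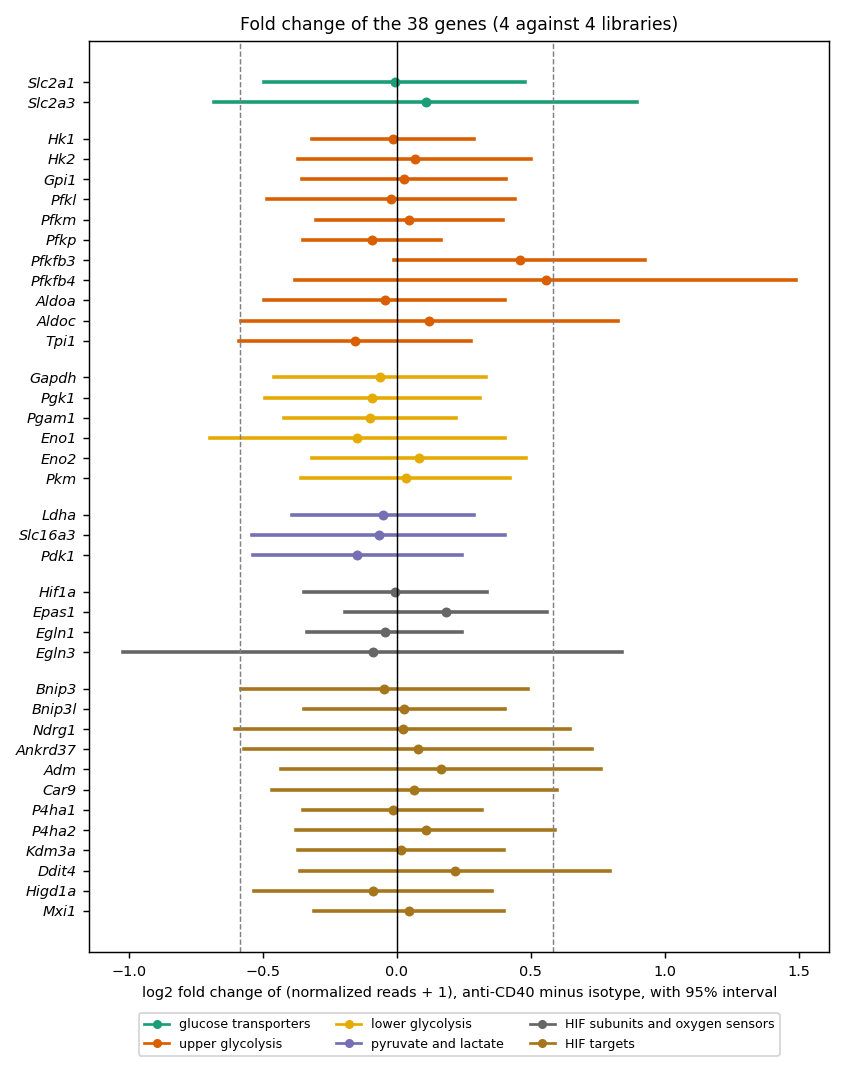
Log2 fold change (anti-CD40 minus isotype, horizontal axis) of each of the 38 genes, with its 95% interval from limma over 4 against 4 libraries, colored by role. Dashed lines mark a 1.5-fold change. Every interval includes 0, and the lower end of that of Pfkfb3 lies closest to it, at -0.01.

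The glucose transporters did not separate the groups. Slc2a1 (GLUT1), the main transporter of endothelial cells, was at 1427, 2437, 2117 and 3041 normalized reads in the anti-CD40 libraries 5N, 6L, 6R and 10N, and at 1691, 2503, 2559 and 2111 in the isotype libraries 5L, 7N, 8N and 9L. The groups overlapped, with 5N the lowest and 10N the highest, both of them anti-CD40, and the log2 fold change was -0.0074 (SE 0.22; exact permutation p = 0.943). Slc2a3 (GLUT3), a transporter with a higher affinity for glucose, was at 277, 579, 428 and 461 against 193, 752, 418 and 387. Its highest and lowest values were both from isotype libraries, 7N and 5L, and its log2 fold change was 0.11 (SE 0.36; exact permutation p = 1.00).

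Of the 11 genes of upper glycolysis, from hexokinase to triosephosphate isomerase, Pfkfb3 came nearest to a difference. It encodes the bifunctional enzyme that makes fructose-2,6-bisphosphate, the activator of phosphofructokinase, and is known as a driver of glycolysis in sprouting endothelium (chr2:11471433-11554077, minus strand, GENCODE M21 on mm10). The anti-CD40 libraries had 889, 1011, 1134 and 1237 normalized reads and the isotype libraries 508, 1123, 770.5 and 804. All 4 anti-CD40 values lay above the isotype mean, but 7N lay above 5N and 6L, so the groups overlapped. The means were 1068 ± 151 and 801 ± 252 (SD, n = 4 each), a ratio of 1.33. The log2 fold change was 0.46 (SE 0.21, 95% interval -0.01 to 0.93), with a limma p of 0.0548 and an adjusted p of 0.9997. In edgeR the p was 0.0536 and in DESeq2 0.0527, and the exact permutation test gave p = 0.114. The limma p was 0.0466 with recomputed size factors and 0.0384 after quantile normalization, with ratios of 1.34 and 1.35, short of the threshold for a ratio. The same held without 5N (limma p of 0.0426, ratio 1.41) and without both 5L and 7N (limma p of 0.0126, ratio 1.36), the latter a setting chosen after the values were seen. The value moved most with 7N and 5L. Without 7N, the log2 fold change was 0.64 and the ratio 1.54, with a limma p of 0.00594, past the threshold, as for 1.67% of all genes in the higher direction in that setting, and an adjusted p of 0.998. Without 5L, the log2 fold change was 0.26 and the ratio 1.19, with a limma p of 0.135 and an adjusted p of 0.999.

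Pfkfb4, the less abundant relative of Pfkfb3, showed the largest log2 fold change of the 38 and the widest interval. By the ratio of group means it was at 1.30, below Pfkfb3 at 1.33. The values of Pfkfb4 were 60.3, 73.5, 47.5 and 63.9 against 14.7, 59.5, 46.3 and 67.8 normalized reads. The value in 5L rested on 6 reads, and the other 3 isotype libraries lay within or next to the anti-CD40 range. The log2 fold change was 0.56 (SE 0.42, 95% interval -0.38 to 1.49; exact permutation p = 0.343). Without 5L it was 0.082, with a ratio of 1.06.

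Aldoa, the aldolase of most tissues, was the most abundant gene of upper glycolysis, at 7579, 8374, 11634 and 13236 normalized reads against 12972, 8703, 10249 and 9565. The anti-CD40 group spanned the whole range and the isotype group lay inside it, with 5N and 6L low and 6R, 10N and 5L high. The log2 fold change was -0.04 (SE 0.20; exact permutation p = 0.943). The other 8 genes of this role had overlapping groups as well. The ratios of their means lay between 0.909 for Tpi1, which interconverts the triose phosphates, and 1.12 for the aldolase Aldoc, with the hexokinases Hk1 and Hk2 at 0.997 and 1.05, glucose-6-phosphate isomerase Gpi1 at 1.02, and the phosphofructokinases Pfkl, Pfkm and Pfkp at 1.01, 1.02 and 0.942. Pfkp had the narrowest interval of all members, from 0.784-fold to 1.12-fold.

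In lower glycolysis, which yields ATP and pyruvate, the lowest p belonged to Pgam1, the phosphoglycerate mutase, at 0.504 in limma. Its values were 4423, 4195, 5179.7 and 5755 normalized reads against 6063, 5505, 4786 and 4574, and the log2 fold change was -0.10 (SE 0.15). Pkm, the pyruvate kinase and the gene with the largest mean of all 38, was at 14159, 15730.1, 18677 and 21078 against 19504, 13760.5, 17286 and 17229. For both genes the groups overlapped over most of their range, and Pkm had a log2 fold change of 0.03 (SE 0.18; exact permutation p = 0.80). The other 4 genes, Gapdh, Pgk1, Eno1 and Eno2, had ratios between 0.895 and 1.06.

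Of the genes that handle pyruvate and lactate, Ldha, which reduces pyruvate to lactate, was at 7923, 7794, 9732 and 10645 normalized reads against 11144, 8538, 8642 and 8991. Its 95% interval ran from 0.762-fold to 1.22-fold (log2 fold change -0.05, SE 0.15; exact permutation p = 0.743). Pdk1, the kinase that shuts pyruvate dehydrogenase off, was at 732, 903, 978 and 1016 against 875, 1411, 959.7 and 835. Here 7N stood above all other libraries, and the log2 fold change of -0.15 (SE 0.18; exact permutation p = 0.629) turned to 0.02 without it. Slc16a3 (MCT4), a lactate exporter, had means of 1166 ± 414 and 1169 ± 91.0 (SD, n = 4 each), the wider spread in the anti-CD40 group, where 5N had 731 and 10N had 1728.

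The HIF subunits and oxygen sensors also overlapped between the groups. Hif1a was at 4782, 4222, 4004 and 3729 normalized reads against 3683, 5555, 4096 and 3647 (log2 fold change -0.0050, SE 0.16; exact permutation p = 0.914). Epas1, the HIF subunit known as enriched in endothelium, was at 3633, 5407, 3955 and 3592 against 2869, 3540.1, 4406 and 3749.7 (log2 fold change 0.18, SE 0.17; exact permutation p = 0.429). The highest Hif1a value was from 7N and the highest Epas1 value from 6L. Of the sensors, Egln1 (PHD2) varied little, with means of 1233 ± 192 and 1262 ± 84.3 (SD, n = 4 each). Egln3 (PHD3), itself induced by HIF, varied most of all 38 genes, 5.59-fold between its highest and lowest library. It was at 265, 468, 338 and 406 against 142, 792, 429 and 453, so that all 4 anti-CD40 values lay between the isotype libraries 5L and 7N. The ratio of its group means was 0.813, the lowest of the 38. The log2 fold change was -0.09 (SE 0.42; exact permutation p = 0.629). Without 5L it was -0.57, with a ratio of 0.662, a limma p of 0.0356 and an adjusted p of 0.999, which is past the threshold, as for 0.945% of all genes in the lower direction in that setting against 0.239% with all libraries. Without 7N it had the opposite sign, at 0.26, with a ratio of 1.08.

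Among the 12 HIF targets, Ndrg1, a stress-induced regulator of growth and differentiation, had the largest mean. It was at 2420.2, 3458, 2677 and 2752 normalized reads against 1574, 4984, 2800.1 and 2644 (log2 fold change 0.02, SE 0.28; exact permutation p = 0.80). Ddit4 (REDD1), an inhibitor of mTORC1, had the lowest limma p of this role, with 464, 676, 689 and 782 against 354, 921, 527 and 536 (log2 fold change 0.22, SE 0.26; exact permutation p = 0.600). In both genes the 2 isotype libraries 5L and 7N were the lowest and the highest of the 8. Without 7N, the log2 fold change of Ddit4 was 0.47 with a limma p of 0.0496 and a ratio of 1.38, under the threshold for a ratio. Without 5L it was 0.0067, with a ratio of 0.987.

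The other 10 HIF targets had ratios between 0.938 and 1.09. They are the mitophagy receptors Bnip3 and Bnip3l, the vasodilator peptide adrenomedullin (Adm), the carbonic anhydrase Car9, the collagen prolyl hydroxylases P4ha1 and P4ha2, the histone demethylase Kdm3a, the MYC antagonist Mxi1, the mitochondrial protein Higd1a and the ankyrin repeat gene Ankrd37. Adm was nearly level within the anti-CD40 group (854, 836, 830.3 and 987 normalized reads) and spread from 413 in 5L to 1259 in 7N in the isotype group (826 and 862 in 8N and 9L). Bnip3 was at 1192, 1276, 1877 and 1727 against 1378, 2541, 1436 and 1117, with 7N again the highest.

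**Figure D2:**
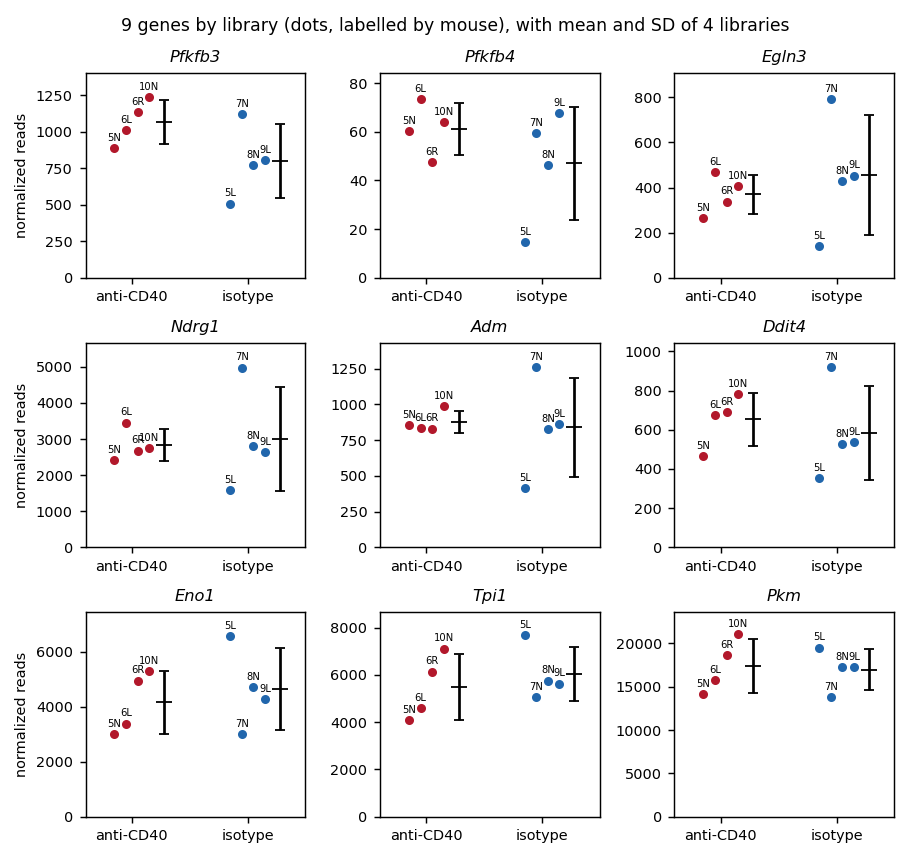
Normalized reads (vertical axis, from 0) of 9 of the genes in each library, with the 4 anti-CD40 libraries in red and the 4 isotype libraries in blue, each dot labelled by mouse, and bars for the mean and SD of a group. For Egln3, Ndrg1, Adm and Ddit4 the isotype libraries 5L and 7N are the lowest and the highest of all 8, while for Eno1 and Tpi1 5L is the highest.

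The second question was how the genes varied from tumor to tumor. The glycolytic enzymes and the HIF targets parted mainly in the isotype libraries 5L and 7N. Each gene was set against its own mean of log2(value + 1) over the 8 libraries, and the median of these deviations was taken over the genes of a role. For the 6 genes of lower glycolysis the median deviation was -0.26, -0.26, 0.22 and 0.21 in the anti-CD40 libraries 5N, 6L, 6R and 10N, and 0.29, -0.19, -0.00080 and -0.0086 in the isotype libraries 5L, 7N, 8N and 9L. For the 11 genes of upper glycolysis it was -0.29, -0.14, 0.12 and 0.34, and 0.29, -0.15, -0.012 and -0.046. High and low libraries were thus found in both groups, and 5L, 6R and 10N were the upper 3 in both roles.

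For the 12 HIF targets the median deviation was -0.29, 0.030, 0.10 and 0.22 in the anti-CD40 libraries and -0.31, 0.47, -0.035 and -0.066 in the isotype libraries. Here 7N was highest and 5L lowest, while 5L was among the highest for glycolysis. In the anti-CD40 group the order of the HIF targets, with 5N lowest and 10N highest, was the same as that of upper glycolysis. Over all genes tested the same median stayed between -0.055 and 0.047 in every library. Library 7N held the highest value of 8 of the 12 HIF targets and of 13 of the 38 members, against 26.5% of all genes tested. Library 5L held the highest value of 7 of the 38 members (20.9% of all genes), 4 of them among the 6 genes of lower glycolysis and none among the 16 hypoxia genes. It held the lowest value of 12 of the 38 members (29.7% of all genes), 7 of them HIF targets and none in lower glycolysis. The counts over all 38 members were thus near the background, and the roles lay on either side of it. Both 5L and 7N are also the libraries with the fewest reads.

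**Figure D3:**
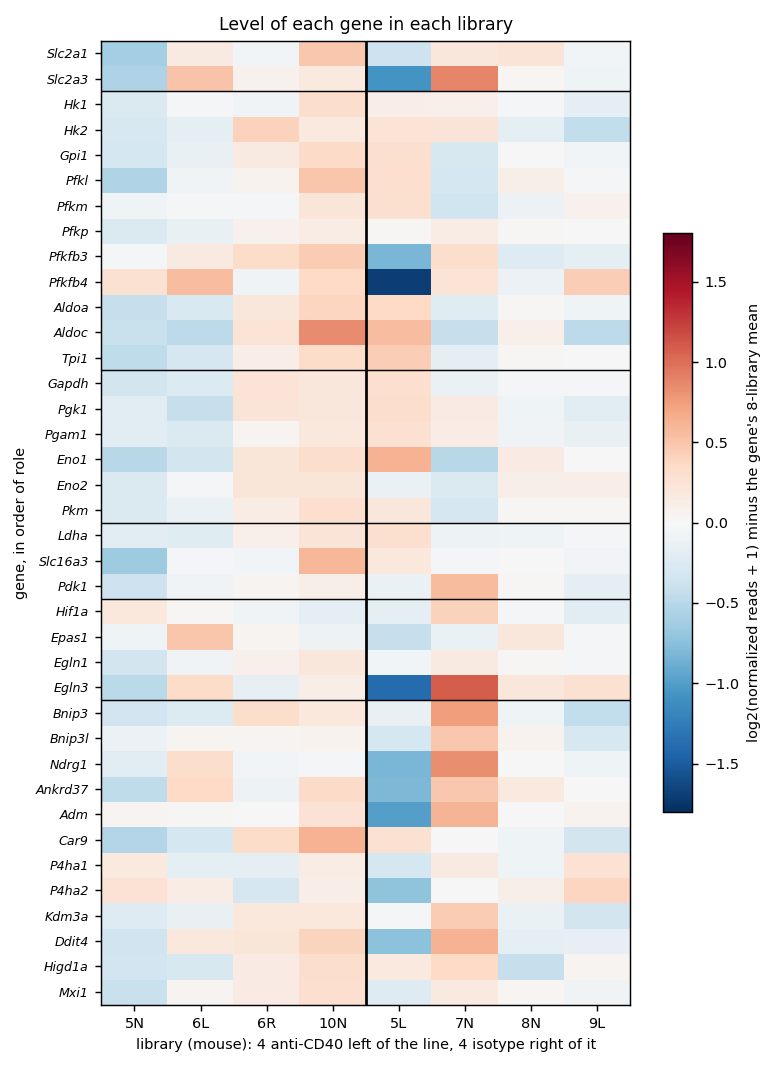
Deviation of each gene (rows, in order of role, black lines between roles) from its own 8-library mean of log2(normalized reads + 1), for the 4 anti-CD40 libraries left and the 4 isotype libraries right of the thick line. Red is above and blue below the mean. In 5L most glycolytic enzymes are red and most HIF targets blue, and in 7N most HIF targets are red.

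The anti-CD40 libraries lay inside the spread of the isotype libraries for 10 of the 12 HIF targets, 0 of the 6 genes of lower glycolysis and 1 of the 11 of upper glycolysis. Over all 38 members this held for 14, against 38.4% of all genes tested. The summed level of the 12 HIF targets was 13082 to 16089 normalized reads in the anti-CD40 group and 10975 to 19632 in the isotype group. Whether the groups differ in spread was not tested.

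Some markers of other cells had their extremes in the same libraries. The 7 melanoma markers had median deviations of -0.28, -0.58, 0.34 and 0.19 in the anti-CD40 and 0.94, -0.32, -0.065 and -0.25 in the isotype libraries. Their upper 3 libraries were 5L, 6R and 10N, the same 3 as for both glycolysis roles. In lower glycolysis the first 5 libraries, 5L, 6R, 10N, 8N and 9L, came in the same order as in the melanoma markers, and all 7 of these markers were highest in 5L. For the 5 mural cell markers the values were -0.62, 0.36, 0.0024 and -0.047 against -1.02, 0.67, 0.39 and 0.42, highest in 7N and lowest in 5L, like the HIF targets. The libraries between these did not share the order, since 8N and 9L were the next highest for the mural markers and 10N for the HIF targets. The fibroblast, platelet and endothelial markers were lowest in 5L as well, at -1.03, -1.78 and -0.32. The 5 red blood cell markers were highest in 7N, at 2.92, with 9L next, at 1.57, and then 5L, at 0.54, so that 5L was not low for them. The 7 immediate-early and heat-shock genes, which cells can switch on during handling, were also lowest in 5L, at -0.94, with sums of 9388 to 14950 in the anti-CD40 and 5941 to 14784 in the isotype libraries. All 7 had a log2 fold change above 0, with a median of 0.33, and 0 were past the threshold. The part of these cells, and of handling, in the level of the members was not tested. Without both 5L and 7N, 0 of the 38 genes were called in either direction. Such a count says little, since with all libraries only 1.28% of all genes were called higher and 0.239% lower. In the fit without both, the median log2 fold change was 0.014 for the glycolysis and 0.047 for the hypoxia genes.

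**Figure D4:**
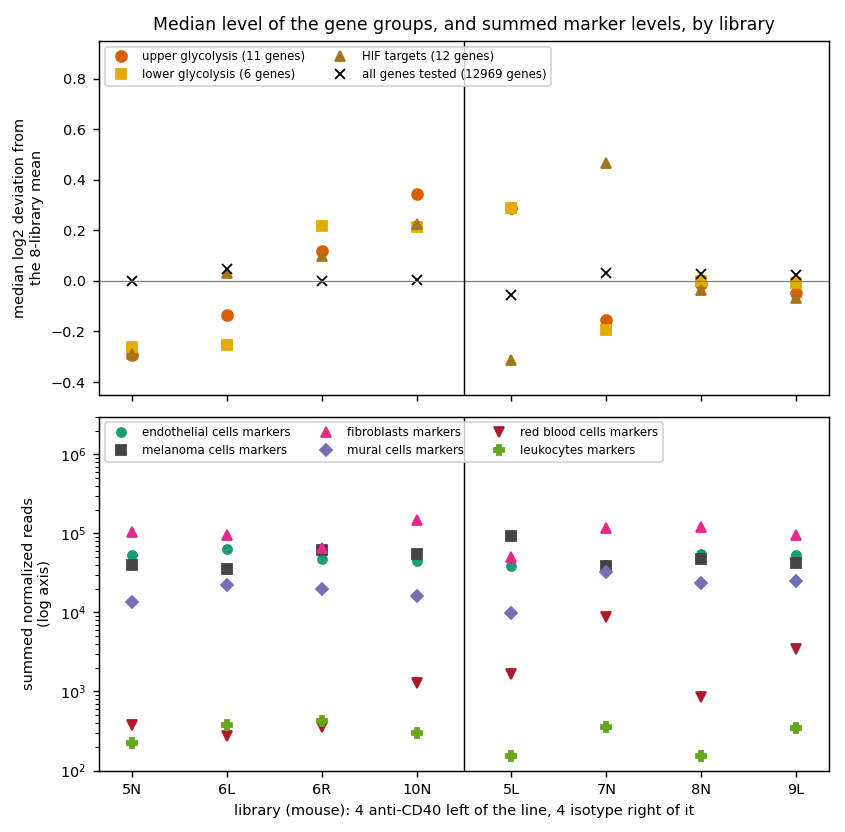
Upper panel: median log2 deviation from the 8-library mean (vertical axis) of the genes of upper glycolysis, lower glycolysis and the HIF targets, beside all genes tested, in each library. Lower panel: summed normalized reads (log axis) of 6 marker lists in the same libraries. The glycolysis medians are highest in 10N and 5L, the HIF targets in 7N, and the melanoma marker sum in 5L, at 93734.

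The balance between related enzymes was compared within each library, where the library scale cancels. None of the 10 pairs of paralogs separated the groups in a two-sided exact permutation test, whose smallest possible p is 0.0286 here. The p-values lay between 0.457 and 1, and adjusted over the 10 pairs between 0.921 and 1. The largest difference, anti-CD40 minus isotype, was 0.23 on the log2 scale for the ratio of the neuronal enolase Eno2 to Eno1, with means of -5.05 ± 0.19 and -5.28 ± 0.44 (SD, n = 4 each; exact permutation p = 0.457). The ratio of Epas1 to Hif1a was -0.40, 0.36, -0.018 and -0.054 in the anti-CD40 and -0.36, -0.65, 0.11 and 0.040 in the isotype libraries. The ratio, taken without scaling for exon length, was above 0 in 3 of the 8 libraries, 6L, 8N and 9L. The ratio of Egln3 to Egln1 spread most, from -3.07 in 5L to -0.80 in 7N.

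Levels of different genes were compared as normalized reads per kilobase of exon. Gapdh was highest, at 9576 ± 1553 (SD, n = 8), followed by Pkm at 6609 ± 984, Ldha at 4842 ± 648 and Pgk1 at 4729 ± 824. Neighbours in this order lay within each other's spread from Ldha to Aldoa (4011 ± 830.3), and the enzymes of glycolysis, from Gapdh to Gpi1 (1396 ± 243), took the first 9 ranks of the 38. The highest HIF target was Ndrg1, at 1009 ± 341, and Hif1a and Epas1 were close, at 774 ± 121 and 706 ± 136. The main isoforms were far above their paralogs, with Aldoa at 4011 against Aldoc at 76.2, Eno1 at 1729 against Eno2 at 42.3, and Slc2a1 at 686 against Slc2a3 at 110.4. The hexokinases were closer to each other, with Hk1 at 418 ± 52.2 and Hk2 at 312 ± 65.2, and the phosphofructokinases Pfkl, at 657 ± 148, and Pfkp, at 555 ± 49.4, overlapped in their spread. Pfkfb4 was lowest, at 15.5 ± 5.30.

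**Figure D5:**
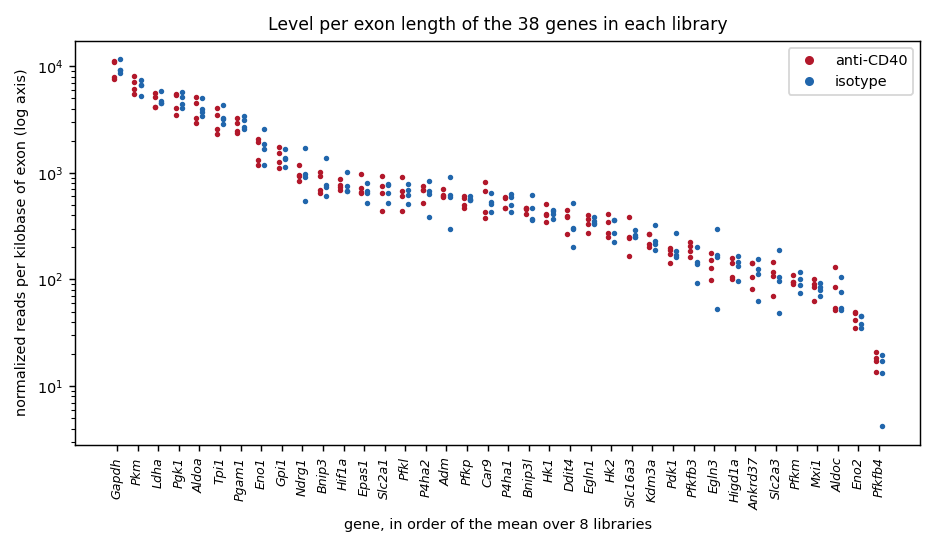
Normalized reads per kilobase of exon (log axis) of the 38 genes in each library, in order of their mean, with anti-CD40 in red and isotype in blue. The enzymes of glycolysis fill the first 9 ranks, and red and blue dots overlap for every gene.

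These levels carry uncertainty from shared sequence. Of the 50-base windows in the transcripts of Pgk1, 53.9% also occur in transcripts of other genes, mostly of Pgk1-rs7. The share was 36.2% for Pgam1, 26.0% for Eno1, 25.8% for Pkm, 24.7% for Gapdh, 20.8% for Bnip3l and 16.5% for Bnip3, and below 10% for the other 31 members. The library kit does not mark strand, and 13 of the 38 genes overlap an exon of the opposite strand, the most for Bnip3 (27.2% of its exon length) and Ankrd37 (26.2%).

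The other genes of the same pathways were tested in the same fit. Of 78 such genes in the table, 69 passed the filter on low values, and 0 were called higher and 0 lower in limma, and 0 reached an unadjusted p of 0.05. In edgeR 0 were called, and in DESeq2 1 was (Slc16a7, lower, ratio 0.417, adjusted p = 0.999), against 0.447% of all genes called lower there. The log2 fold changes of the 69 had a median of -0.044, with 26 above 0 and 43 below. The 3 lowest limma p-values belonged to Bpgm, which makes 2,3-bisphosphoglycerate, Mpc2, a subunit of the mitochondrial pyruvate carrier, and Slc16a7 (MCT2), a monocarboxylate transporter. Bpgm had means of 173 ± 15.8 and 224 ± 57.0 (SD, n = 4 each) and a log2 fold change of -0.35 (SE 0.19; exact permutation p = 0.143). For Mpc2 the means were 103 ± 9.34 and 129 ± 18.9, with a log2 fold change of -0.32 (SE 0.17; exact permutation p = 0.0857). Slc16a7 was near the filter, at 8.13, 4.90, 16.2 and 11.03 normalized reads against 56.2, 19.0, 13.6 and 10.4, with 5L the highest, and its log2 fold change was -1.02 (SE 0.56; exact permutation p = 0.171).

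Leaving out 1 library brought 4 of these pathway genes past the threshold, with adjusted p-values in limma of at least 0.999. These are pooled over 8 fits, each with 1 library left out. They were Eno3, higher without 6L (ratio 1.65), Stc1, higher without 7N (ratio 1.60), Ppp1r3c, lower without 5L (ratio 0.481), and Slc16a7, lower without 9L (ratio 0.340). In these settings 0.957%, 1.67%, 0.945% and 0.400% of all genes were past the threshold in the same direction. Of the 37 tested HIF pathway genes and targets outside the 38, 26 were highest in 7N, against 26.5% of all genes tested, and of the 32 tested other glycolysis and pyruvate genes 12 were.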

How the data were processed

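RNA-seq was measured in 8 libraries, 4 from anti-CD40 and 4 from isotype treated tumors. The signal values deposited by the authors are reads per gene, aligned to mm10, summed over genes with Partek software (6.6) and then scaled by the size factors of DESeq2. The study's methods name TopHat2 as the aligner, while the submitters' processing notes name Bowtie2 2.2.1. The methods also describe a correction for harvest day and a floor of 1, but 99.9% of the values were whole reads to within 0.1 and zeros were present, so neither is visible. The kit was TruSeq RNA v2, which does not mark strand. Reads are not counted by molecule, so read numbers cover counting error only.

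Values were tested as log2(value + 1) with limma 3.58.1 (R 4.3.3), variance trend on, with treatment as the only term, over 12969 genes with a larger group mean above 10. The p-values were adjusted by the Benjamini-Hochberg method over all of them. The study used an ANOVA that also held macrophage samples, which were not used here. Its threshold was kept, a ratio of 1.5 and an unadjusted p of 0.05. Replicate numbers only name samples. Whole reads were recovered from the value of 1 read in each library and tested with edgeR 4.0.16 and DESeq2 1.42.0. Alternatives were pseudocounts of 0.1 and 10, no filter, a filter at 50, recomputed size factors, quantile normalization, limma without trend or with robust moderation, and leaving out each library. Leaving out 5L and 7N together was added after the data were seen. The fit was tested on simulated data.

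The members and the lists were chosen with earlier results of these data known. Values in every library are given for members past the threshold or with groups that do not overlap, and in each role for the gene with the lowest p and the gene with the largest mean. Pfkfb4, Egln3, Adm and Bnip3 were added after their values were seen. Of the other pathway genes, those past the threshold or else the 3 with the lowest p are named. Exon lengths and shared windows are from GENCODE M21.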

Additional observations from a re-analysis of the deposited data

Results flagged for a closer look

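In 5 of the 96 groups of 4 libraries that were checked (38 genes and 10 ratios, in 2 treatments), 1 library stood apart from the other 3 by Dixon's criterion, which chance meets in about 1 of 20 groups. Pfkm was high in the anti-CD40 library 10N, at 332 normalized reads against 272 to 282 in the other 3. Pfkp was high in the isotype library 7N, at 2612 against 2391 to 2420.3. Bnip3l was low in the anti-CD40 library 5N, at 1358 against 1515 to 1525. Adm was high in the anti-CD40 library 10N, at 987 against 830.3 to 854. The log2 ratio of Hk2 to Hk1 was high in the anti-CD40 library 6R, at 0.24 against -0.36 to -0.26.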

How the results depend on the processing

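Over the 19 alternatives, no member reached an adjusted p under 0.05, and the lowest was 0.998. Of the 38 genes, 6 kept the sign of their fold change in all 19 and 32 changed it in at least 1. Leaving out each library in turn, the number of members called ranged from 0 to 1 higher (Pfkfb3, without 7N) and 0 to 1 lower (Egln3, without 5L), and that of other pathway genes from 0 to 1 higher and 0 to 1 lower, with 1 lower in DESeq2. Among all genes, 124 to 234 were called higher leaving out each library, with 216 without 7N, against 166 in the fit reported, and 297 were called higher and 88 lower with no filter. Genes lower numbered 13 with the filter at 50, 57 without the trend, 47 in edgeR, 58 in DESeq2, 56 without 5L and 7N, and 27 to 123 leaving out each library, the most without 5L, while 31 were lower in the fit reported.

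The log2 fold change of Slc2a1 turned to 0.0058 under quantile normalization, 0.023 in edgeR and 0.023 in DESeq2, that of Hif1a to 6.7e-05 under quantile normalization, and that of Ndrg1 to -0.078 in edgeR and -0.083 in DESeq2. Without 5L and 7N, it was 0.0061 for Aldoa, 0.052 for Pgam1, -0.0042 for Pkm, 0.0081 for Pdk1, 0.021 for Ldha and 0.11 for Hif1a. The difference in the Pfkfb4 to Pfkfb3 ratio, 0.10 as reported, was -0.020 with a pseudocount of 10. The cause of these shifts was not tested. Leaving out each library in turn, the log2 fold change ranged from -0.17 to 0.20 for Slc2a1, -0.23 to 0.42 for Slc2a3, -0.18 to 0.086 for Aldoa, -0.064 to 0.13 for Pkm, -0.14 to 0.036 for Ldha, -0.23 to 0.019 for Pdk1, -0.071 to 0.13 for Hif1a, -0.25 to 0.31 for Ndrg1, -0.57 to 0.26 for Egln3, 0.0067 to 0.47 for Ddit4, 0.082 to 0.79 for Pfkfb4 and 0.26 to 0.64 for Pfkfb3. No paired analysis was possible because the labels give the libraries no replicate numbers, and the numbers used here follow accession order and do not pair mice. The median log2 fold change ranged from -0.14 to 0.11 for the glycolysis genes and -0.070 to 0.17 for the hypoxia genes. The shallowest library limits the low genes, with Pfkfb4 at 6 reads in 5L.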
